A study of Mus musculus with 2 samples.

Results

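The matrix metalloproteinases (MMPs), the ADAMTS enzymes with their ADAMTS-like relatives, and the tissue inhibitors of metalloproteinases (TIMPs) were followed in ureters of mouse embryos labelled Tbx2/Tbx3cDKO. Members were all gene spots of the array whose file gene name begins with Mmp, Adamts, Adamtsl or Timp and a digit, with the brightest probe taken for each gene. This gave 51 genes on 68 probes and 86 spots, out of 31870 gene names on 39429 probes and 43020 spots. They comprised 23 MMPs, 19 ADAMTS enzymes, 5 ADAMTS-like genes and 4 TIMPs. The rule reads gene names and probe brightness and no expression ratio. The families themselves were chosen with earlier results of these data known.

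Total RNA of E18.5 ureters from NMRI mice was hybridised to 2 Agilent 2-colour arrays, each with RNA labelled cDKO in one dye and control RNA in the other. The embryos labelled cDKO carried Tbx18(cre/+) together with Tbx2(fl/fl) and Tbx3(fl/fl), that is 1 Cre allele of Tbx18 with Tbx2 and Tbx3 floxed on both chromosomes. Controls carried Tbx18(+/+) together with Tbx2(fl/?) and Tbx3(fl/?), so they had no Cre and at least 1 floxed allele of each gene, the other being unstated. All groups share the floxed background, and Cre made from the Tbx18 locus acts in the cells that express Tbx18, known in the ureter as the mesenchyme, so the epithelium is outside its known reach. Replicate 1 held RNA of males with cDKO in red, and replicate 2 RNA of females with cDKO in green. Sex, dye and replicate number therefore cannot be told apart, n is 2 ratios, and the number of embryos behind each RNA is not given. The p-values rest on the spread between these 2 arrays only, and mostly on that spread as pooled over all tested probes.

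MMPs are zinc proteases made as inactive precursors, which cut collagens, basement membrane and other matrix proteins. ADAMTS enzymes are secreted zinc proteases that process procollagens, large proteoglycans and microfibril proteins, and the ADAMTS-like proteins share their ancillary domains without the protease. TIMPs bind the active site of MMPs and of some related proteases. In a developing muscular tube such as the ureter these genes are known mostly from mesenchyme, blood vessels and blood cells.

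Between 72.1% and 81.6% of gene spots were well above background in each RNA. Both floxed genes were called higher, not lower: log2 ratios of labelled cDKO over control were 1.04 (male array) and 0.44 (female array) for Tbx2 and 0.78 and 0.55 for Tbx3 (limma adjusted p = 0.0273 and 0.0305). Tbx18, which carries Cre on 1 allele, was also higher, at 0.81 on both arrays (limma adjusted p = 0.00778). The deleted exons are not named in the labels, so these probes do not check the genotype, and directions below are those of the RNA labelled cDKO. Smooth muscle was the marker list that moved furthest: 11 of 12 tested genes fell and 0 rose, with a median log2 ratio of -2.20. Its summed signal was 138860 and 85233 in labelled cDKO ureters, against 707590 and 437550 in control ureters. Fewer cells of a type and less RNA per cell cannot be told apart in such bulk RNA. Kidney markers rose for 7 of 9 tested genes and fell for 0, with summed signals of 15776 and 7751 in labelled cDKO ureters against 6191 and 6946 in control ureters, while Nphs1, Slc12a1 and Umod were too dim to test. Liver markers, a list added after the data were seen, stood apart in 1 RNA: their summed signal was 118500 in female labelled cDKO ureters, against 28344 in female control ureters, and 33201 in male labelled cDKO ureters, against 46224 in male control ureters.

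Of the 51 members, 40 were bright enough to test, which required a signal well above background in the labelled cDKO RNA of both arrays or in the control RNA of both arrays. They were 14 MMPs, 17 ADAMTS enzymes, all 5 ADAMTS-like genes and all 4 TIMPs, and 36 of them were well above background in all 4 RNAs. The 11 genes not tested were Mmp1b, Mmp7, Mmp12, Mmp13, Mmp20, Mmp21, Mmp24, Mmp25, Mmp28, Adamts13 and Adamts20. Their processed signals lay between 2.17 and 18.6. For 6 of these, Mmp7, Mmp12, Mmp13, Mmp21, Mmp24 and Mmp28, no RNA was well above background, while each of the other 5 was so in at least 1 RNA.

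Of the 40 tested members, 2 rose, Adamtsl2 and Adamts2, and 1 fell, Mmp9 (limma, adjusted p under 0.05 over all probes). These are 5% and 2.5% of the tested members, beside 2.19% of all 23419 tested genes called higher, 2.26% called lower and 4.45% called either way. With so few members called, the shares rest on 2 genes and 1 gene. The fold rule without a test, at least 2-fold on both arrays, was met by Adamtsl2 alone in the higher direction and by 0 members in the lower one. The shares of all genes were 0.41% and 0.726%. Mmp9 missed the rule at -0.82 on the male array, though its processed signals were 41.5% and 27.2% of control. The median log2 ratio of the 40 was 0.25, with 0.25 (male array) and 0.20 (female array), beside 0.0046 over all tested genes. Both arrays were above 0 for 23 members (57.5%, beside 31.7% of all genes) and both below 0 for 8 (20%, beside 28%). They had opposite signs for 9 members, beside 9427 of all 23419 genes. An unadjusted p under 0.05 was found for 15 members with a higher ratio (37.5%, beside 9.62%) and for 4 with a lower one (10%, beside 6.4%). In the processed signals, both labelled cDKO values lay above both control values for 14 tested members (35%, beside 11.8%). They lay below both for 2 (5%, beside 7.54%). This comparison runs across the arrays and sets aside their pairing, so differences in brightness between arrays enter it. The same holds wherever groups are said not to overlap. Adamts3, dim in control RNA on both arrays, is counted among the 23, the 15 and the 14 members above.

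**Figure D1:**
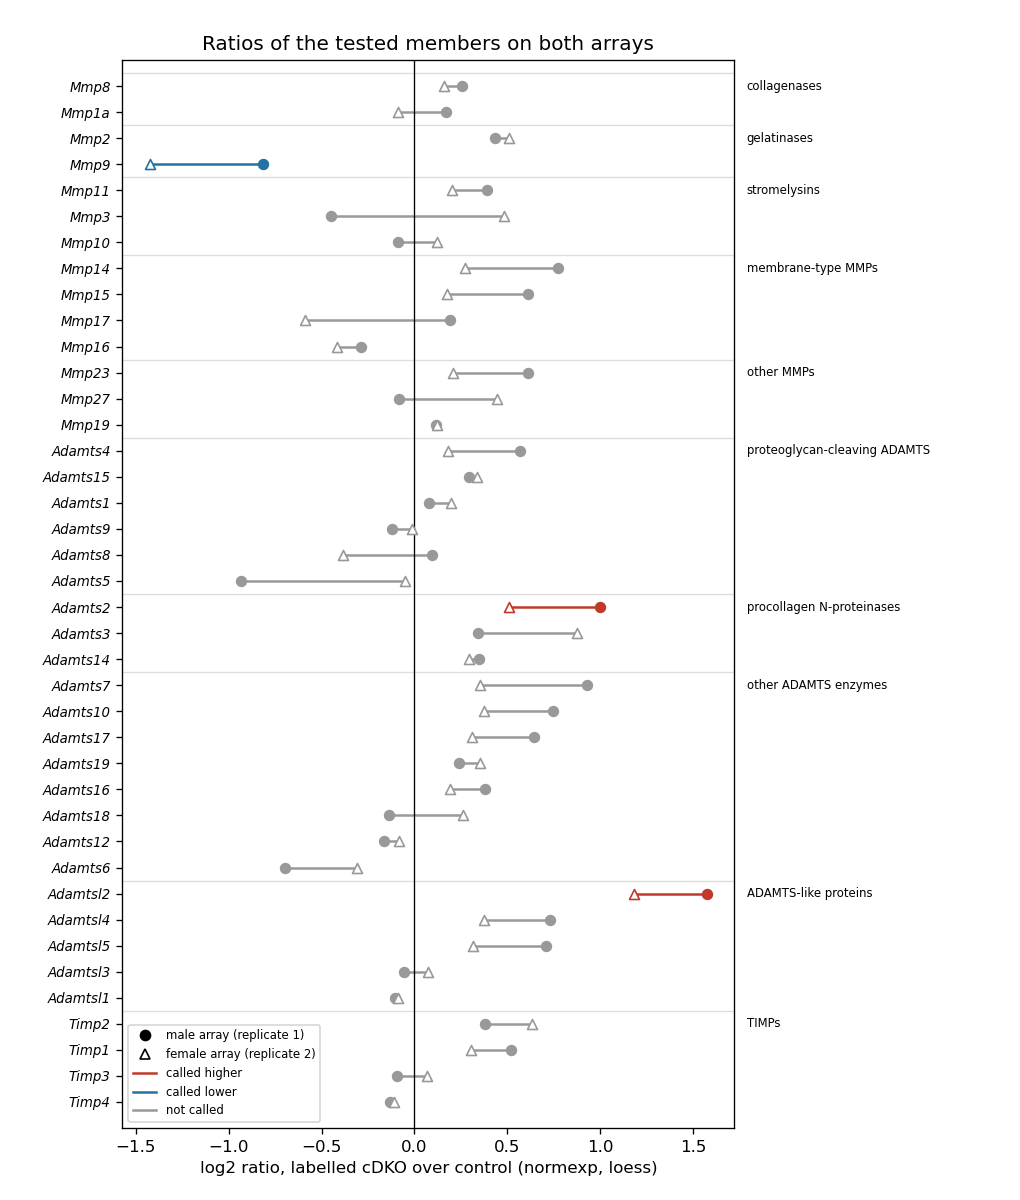
Log2 ratio of labelled cDKO over control on the horizontal axis for each of the 40 tested members, grouped by role, with a filled circle for the male array, an open triangle for the female array and a line between them. Adamtsl2 lies at 1.57 and 1.18, Adamts2 at 1.00 and 0.51, and Mmp9 at -0.82 and -1.42, and 23 members have both symbols above 0.

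The ADAMTS-like genes held the member with the highest ratio. Adamtsl2 encodes a secreted glycoprotein that binds fibrillin-1 and latent TGF-beta binding protein, and its human gene is mutated in geleophysic dysplasia. Its processed signal was 233 in male and 147 in female labelled cDKO ureters, against 35.6 in male and 53.7 in female control ureters. Both labelled cDKO values were above both control values, and all 4 were well above background. The ratio was 1.38 ± 0.28 on the log2 scale (SD, n = 2; limma adjusted p = 0.000109), which is 2.60-fold, and it was positive on 2 of 2 arrays. The size depends on the background offset that the ratios carry: the same gene stood at 2.08 with the processed signals, where its call was lost (adjusted p = 0.0602). The single Adamtsl2 probe maps to chromosome 2, 26964005 to 26964064 of mm9.

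Because Adamtsl2 led the members, the 250 bases before its start are shown, all in lower case since neither motif searched (below) was in the window (RefSeq, GRCm38.p6, chr2:27079129-27079378, plus strand).
Adamtsl2: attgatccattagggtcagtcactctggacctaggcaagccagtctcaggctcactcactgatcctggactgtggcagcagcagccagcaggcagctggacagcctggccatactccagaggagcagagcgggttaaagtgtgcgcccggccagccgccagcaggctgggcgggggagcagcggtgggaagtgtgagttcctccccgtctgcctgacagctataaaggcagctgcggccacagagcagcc

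The remaining ADAMTS-like genes did not pass the test. Adamtsl4, whose product binds fibrillin-1 and whose human gene is mutated in lens dislocation, had signals of 4215 and 2748 in labelled cDKO ureters and 2570 and 2100.5 in control ureters. Its groups did not overlap, and its log2 ratio was 0.55 ± 0.25 (SD, n = 2; limma adjusted p = 0.0907). Adamtsl5, another microfibril-binding relative, was similar in size at 0.71 (male array) and 0.31 (female array) (limma adjusted p = 0.128). Adamtsl1 and Adamtsl3 had ratios of -0.10 and 0.0083. The genes of this small family thus ranged from -0.10 to 1.38, with 1 of 5 called.

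**Figure D2:**
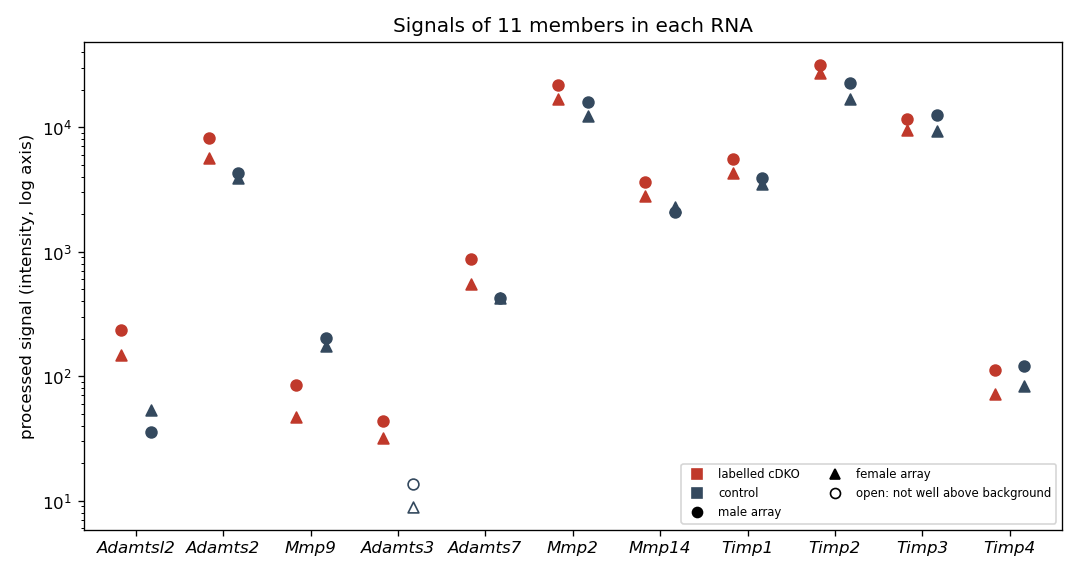
Processed signal (intensity, log axis) of 11 members in each RNA, with labelled cDKO to the left of control, circles for the male array and triangles for the female array, and open symbols where a spot was not well above background. Levels of different probes are not comparable. Adamtsl2, Adamts2, Adamts3, Adamts7, Mmp2, Mmp14, Timp1 and Timp2 have both labelled cDKO symbols above both control symbols, and Mmp9 has both below.

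Among the procollagen N-proteinases, which remove the amino-terminal propeptide of fibrillar procollagens, 1 of 3 genes was called. The brightest probe of each had a positive ratio on both arrays, though the control spots of Adamts3 were dim. Adamts2, the main such enzyme of skin, had signals of 8216 and 5604 in labelled cDKO ureters and 4259 and 3875.5 in control ureters. The groups did not overlap, and the log2 ratio was 0.75 ± 0.35 (SD, n = 2; limma adjusted p = 0.0202), which is 1.69-fold. This call rests on 1 of 2 probes: the dimmer probe had 0.65 (male array) and -0.24 (female array) (limma adjusted p = 0.715). With the mean of both probes Adamts2 stood at 0.48 (adjusted p = 0.161), and median centring or the processed signals also ended its call. The called Adamts2 probe maps to chromosome 11, 50617472 to 50617531 of mm9.

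Adamts3, an N-proteinase that also activates the lymphatic growth factor VEGF-C, had signals of 43.3 and 31.7 in labelled cDKO ureters. In control ureters its signals were 13.5 and 8.81, not well above background on either array. Adamts3 passed the filter through the labelled cDKO RNA only, the side where it is higher, so its ratio is no support for a rise. With control spots taken at no less than the lowest level counted as well above background, labelled cDKO stood 1.29-fold higher. This bound was not tested. The fitted log2 ratio, 0.61, did not pass (limma adjusted p = 0.0717), and its size is set by the treatment of the background: it was 0.93 with an offset of 0 and 1.76 with the processed signals. Since the control spots were dim, no call of Adamts3 under another setting is read as a result. It is named with Adamts7 after its values were seen. Adamts14, the last of these enzymes, stood at 0.32 ± 0.036 (SD, n = 2; limma adjusted p = 0.373), and its other probe at 0.076 (male array) and -0.025 (female array).

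The proteoglycan-cleaving ADAMTS enzymes cut the large aggregating proteoglycans versican and aggrecan. Of 6 tested genes 0 were called by limma, and the median ratio was 0.034. An unadjusted p under 0.05 was found for 2, 1 higher and 1 lower, beside 3752 of all 23419 genes. Adamts1, named as the brightest probe of its group, had signals of 10307 and 7649 in labelled cDKO ureters and 9945 and 6777 in control ureters, which overlap. Its log2 ratio was 0.14 ± 0.083 (SD, n = 2; limma adjusted p = 0.798). Adamts4 was at 0.57 (male array) and 0.18 (female array) and Adamts15 at 0.29 and 0.33. Adamts5, a major aggrecanase of cartilage, was the lowest of the group at -0.49 ± 0.62 (SD, n = 2; limma adjusted p = 0.226). The spread of Adamts5 exceeds its mean, since the male array gave -0.93 and the female array -0.053, and its other probe gave -0.13. Adamts9 and Adamts8 had mean ratios of -0.067 and -0.15.

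Of the 8 tested genes among the other ADAMTS enzymes, 0 were called by limma. An unadjusted p under 0.05 was found for 4, 3 higher and 1 lower, beside 3752 of all 23419 genes. Adamts7, which cuts cartilage oligomeric matrix protein and is studied in vascular smooth muscle, had signals of 864 and 549 in labelled cDKO ureters and 420.1 and 422 in control ureters. The groups did not overlap, and the ratio of 0.64 ± 0.40 (SD, n = 2) lay just outside the threshold (limma adjusted p = 0.0589). Its call depended on the setting. The limma adjusted p was 0.0332 under robust eBayes, 0.0313 when both channels had to be bright and 0.0389 with the mean of a gene's probes. No other setting called Adamts7, with a limma adjusted p of 0.315 with the processed signals, 0.625 under median centring and 0.105 without a filter. Adamts10 and Adamts17, whose human genes underlie Weill-Marchesani syndromes and whose products act on microfibrils, stood at 0.56 and 0.48 (limma adjusted p = 0.0866 and 0.154). Adamts6, a close relative of Adamts10, ran the other way at -0.70 (male array) and -0.31 (female array) (limma adjusted p = 0.135). Adamts19, named by the same rule, had 10 spots per array and ratios of 0.24 and 0.35 (limma adjusted p = 0.424), while Adamts16, Adamts18 and Adamts12 were between -0.12 and 0.29.

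The gelatinases Mmp2 and Mmp9 cut denatured collagen and type IV collagen. They pointed in opposite directions. Mmp9, made by neutrophils, macrophages and osteoclasts among other cells, had signals of 84.3 and 47.1 in labelled cDKO ureters and 203 and 174 in control ureters. The labelled cDKO signals were 41.5% and 27.2% of the control signals of the same array, and the groups did not overlap. The log2 ratio was -1.12 ± 0.43 (SD, n = 2; limma adjusted p = 0.00137), which is 2.17-fold lower, and it was negative on 2 of 2 arrays. The call of Mmp9 was lost under median centring (adjusted p = 0.0682) and with the deposited value table (adjusted p = 0.276). The probe of Mmp9 is printed 10 times on the array, at chromosome 2, 164780620 to 164780679 of mm9. The SD of the log2 ratio over these spots was 0.039 (male array) and 0.093 (female array), which describes the printing and reading of spots and not the RNAs.

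Markers of cells known to make Mmp9 were measured in the same RNAs. Of 9 tested neutrophil genes, 0 were called by limma, and their summed signal was 8387 and 6948 in labelled cDKO ureters and 7331 and 6336 in control ureters. Of 12 tested macrophage genes, 0 rose and 1, Lyz1, fell, at -0.67, with summed signals of 42797 and 30987 in labelled cDKO ureters and 48933 and 37666 in control ureters. The osteoclast genes Acp5 and Ctsk had ratios of 0.059 and -0.081. The median was 0.15 for neutrophil and -0.14 for macrophage genes, and 7 of the 12 macrophage genes had negative ratios on both arrays, among them Lyz2 at -0.54 (not called). Their part in the fall of Mmp9 was not tested.

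Mmp2, in contrast, was brighter in labelled cDKO ureters, with signals of 21925 and 16915, against 15772 and 12216 in control ureters. The groups did not overlap, but the ratio of 0.47 ± 0.053 (SD, n = 2) did not pass (limma adjusted p = 0.146). Mmp14, the membrane-type enzyme that activates the Mmp2 precursor together with Timp2, had signals of 3595 and 2788 in labelled cDKO ureters and 2085 and 2295 in control ureters. It too did not overlap and did not pass, at 0.52 ± 0.36 (SD, n = 2; limma adjusted p = 0.130), with 0.77 for the male array and 0.27 for the female array. With an intensity trend in the variance, Mmp2 and Timp2 passed (adjusted p = 0.0404 and 0.0223) and Mmp14 did not. In no other setting was Mmp2 or Timp2 called, and with the processed signals their limma adjusted p was 0.384 and 0.293.

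Of the TIMPs, which inhibit MMPs and in part ADAMTS enzymes, 0 of 4 were called by limma. An unadjusted p under 0.05 was found for 2, both higher, beside 3752 of all 23419 genes in either direction. Timp2 had signals of 31802 and 27040 in labelled cDKO ureters and 22628 and 16867 in control ureters, without overlap, and a ratio of 0.51 ± 0.18 (SD, n = 2; limma adjusted p = 0.120). The second probe of Timp2 gave 0.72 (male array) and 0.026 (female array). Timp1, X-linked and induced in many repair settings, had signals of 5540 and 4301 in labelled cDKO ureters and 3924 and 3482 in control ureters, and a ratio of 0.41 ± 0.15 (SD, n = 2; limma adjusted p = 0.225). Timp3, which is bound to the matrix and is the TIMP best known for blocking ADAMTS and ADAM proteases, had signals of 11512 and 9496 in labelled cDKO ureters and 12509 and 9292 in control ureters. These overlap, and its ratio was -0.013 ± 0.11 (SD, n = 2; limma adjusted p = 0.987). Timp4 was at -0.12 ± 0.014 (SD, n = 2; limma adjusted p = 0.828).

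The other MMPs were uncalled. Mmp11, a stromelysin made by mesenchyme and activated by furin, had signals of 9147 and 6245 in labelled cDKO ureters and 6835 and 5532 in control ureters, and a ratio of 0.29 ± 0.13 (SD, n = 2; limma adjusted p = 0.432). Mmp23, an MMP that is anchored in the membrane until it is released by cleavage, had signals of 6578 and 4603 in labelled cDKO ureters and 4499 and 3892 in control ureters, with a ratio of 0.41 ± 0.28 (SD, n = 2; limma adjusted p = 0.249). Among the membrane-type enzymes Mmp15 was at 0.39 and Mmp16 at -0.35, each with the same sign on both arrays, and Mmp17 was at 0.19 (male array) and -0.59 (female array). Mmp8, the neutrophil collagenase, was at 0.21 ± 0.069 (SD, n = 2; limma adjusted p = 0.624). Mmp19 was at 0.12 on both arrays. Mmp3, the stromelysin that activates other MMPs, was at -0.45 (male array) and 0.48 (female array), so that its mean of 0.017 describes neither.

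Position and promoter sequence, which the choice of members did not use, set a block of MMPs together. Of the 23 MMPs, 10 have their probes within 0.415 Mb of chromosome 9, between 7282762 and 7697700 of mm9, in the order Mmp13, Mmp12, Mmp1b, Mmp3, Mmp1a, Mmp10, Mmp8, Mmp27, Mmp20 and Mmp7. Of these 10, 5 were tested, 2 were well above background in all 4 RNAs (Mmp3 and Mmp8) and 0 were called by limma, with 0 at an unadjusted p under 0.05. Of the 13 MMPs elsewhere, 9 were tested, and those 9 were well above background in all 4 RNAs. RefSeq promoter windows (250 bases before to 50 after the start, GRCm38.p6) matched 36 of the 51 members by symbol, and 3 of these had several windows. The members with none here include Mmp2, Mmp9 and Adamts7.

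The letters TGANTCA, a loose form of the binding motif of the AP-1 factors (Fos and Jun) with any base at N, were searched on both strands. They occur in 8 of the 36 members, which is 22.2% of genes, beside 7.81% of all 32851 windows. All 8 are MMPs of the chromosome 9 block: Mmp1a, Mmp1b, Mmp3, Mmp7, Mmp10, Mmp12, Mmp13 and Mmp20. The match of Mmp20 reads TGAATCA, while the others read TGACTCA or TGAGTCA. AP-1 sites are textbook elements of several such promoters, and the motif was chosen for that reason with the data known. The T-box motif AGGTGTGA, searched on both strands, was in 0 of the 36 members and in 1.28% of all windows. No AP-1 match in a member therefore overlaps a T-box match, and a match is only a run of letters. The windows below, of 57 bases each, are shown because they let the shared motif be read in neighbouring genes, with the AP-1 letters in capitals. They lie at chr9:7272454-7272510 for Mmp13, chr9:7347305-7347361 for Mmp12, chr9:7445751-7445807 for Mmp3 and chr9:7502254-7502310 for Mmp10, all on the plus strand of GRCm38.p6, and the motif begins 35, 44, 46 and 63 bases before the start.
Mmp13: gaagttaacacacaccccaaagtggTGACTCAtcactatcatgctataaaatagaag
Mmp12: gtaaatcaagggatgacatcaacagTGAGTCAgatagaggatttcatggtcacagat
Mmp3: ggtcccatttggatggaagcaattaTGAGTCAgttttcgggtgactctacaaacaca
Mmp10: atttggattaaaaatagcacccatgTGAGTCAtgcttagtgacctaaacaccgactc
Mmp12 and Mmp13 were not well above background in any RNA, Mmp10 was so in all but the female control RNA, and Mmp3 was bright in all 4 with signals of 108 and 69.0 in labelled cDKO ureters and 169 and 41.4 in control ureters. Genes with these letters thus ranged from unmeasurable to measured without a call.

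Genes of the matrix that these enzymes act on were read beside them. Of 11 tested fibrillar collagens, 6 rose and 0 fell, with a median log2 ratio of 0.65. Col1a1 and Col1a2, the chains of type I collagen, were at 1.27 ± 0.85 and 1.22 ± 0.33 (SD, n = 2; limma adjusted p = 0.00290 and 0.000432). Col2a1, a cartilage collagen, was at 1.29 and Col5a1 at 1.00. Of 12 cartilage and bone markers 4 rose and 0 fell, with summed signals of 20471 and 13817 in labelled cDKO ureters and 13171 and 11239 in control ureters, and their part in these ratios was not tested.

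Elastic fibre and microfibril genes, whose products bind several ADAMTS-like proteins, rose for 8 of 18 tested genes and fell for 0, with a median of 0.52. Lox, which crosslinks collagen and elastin, was at 1.32 ± 0.13 (SD, n = 2; limma adjusted p = 0.000112), and the fibulins Fbln1, Fbln2 and Fbln5 were at 1.13, 1.03 and 0.89. Fbn1, the fibrillin that Adamtsl2 binds, was at 0.51 and did not pass (limma adjusted p = 0.108). In the basement membrane list 2 of 19 rose, Lama1, a laminin chain, at 1.76 and Nid2, a nidogen, at 0.76, and 0 fell. Lama1 is also known from developing kidney epithelium, and kidney markers were higher in the same RNA, as given above. Their part in the ratios of Lama1 and Adamtsl2 was not tested.

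Among proteoglycans and partners that ADAMTS enzymes cut or bind, 3 of 8 tested genes rose and 0 fell, and all 3 are small leucine-rich proteoglycans: Lum at 0.99, Dcn at 0.84 and Fmod at 0.78. Vcan, the versican substrate, was at -0.15 (male array) and 0.47 (female array), and Ncan, Bcan and Comp were too dim to test. Fibroblast markers, a list that shares Lum, Dcn, Col1a1, Col3a1 and Fbln2 with the lists above, rose for 6 of 10 genes and fell for 0, with summed signals of 492110 and 425910 in labelled cDKO ureters and 275690 and 232240 in control ureters. Endothelial markers rose for 2 of 10 genes, Plvap at 0.97 and Cdh5 at 0.68, and fell for 0, and 7 had positive ratios on both arrays. Their summed signals were 57461 and 39849 in labelled cDKO ureters and 44501 and 32826 in control ureters. The part of fibroblast and endothelial markers in the positive ratios of the members was not tested.

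Of 11 tested other activators and inhibitors of the proteases, 2 rose and 0 fell, with a median log2 ratio of 0.42: Pcolce, which enhances removal of the carboxy-terminal propeptide of procollagen, at 0.89 (limma adjusted p = 0.00816), and Spock2, a testican, at 0.74 (limma adjusted p = 0.0164). Reck, a membrane inhibitor of MMPs, was at 0.42, and Furin, which activates Mmp14 and Mmp11, was at 0.96 (male array) and 0.16 (female array), both uncalled. Of 12 ADAM genes 0 were called by limma and the median was 0.016. Of 7 tested genes of the plasminogen system, which can activate MMP precursors, 0 were called by limma. Plg, the plasminogen gene known from liver, was at -0.12 (male array) and 2.76 (female array), and the protease inhibitor gene Pzp at -0.33 and 2.77, the same array whose labelled cDKO RNA was high in liver markers.

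**Figure D3:**
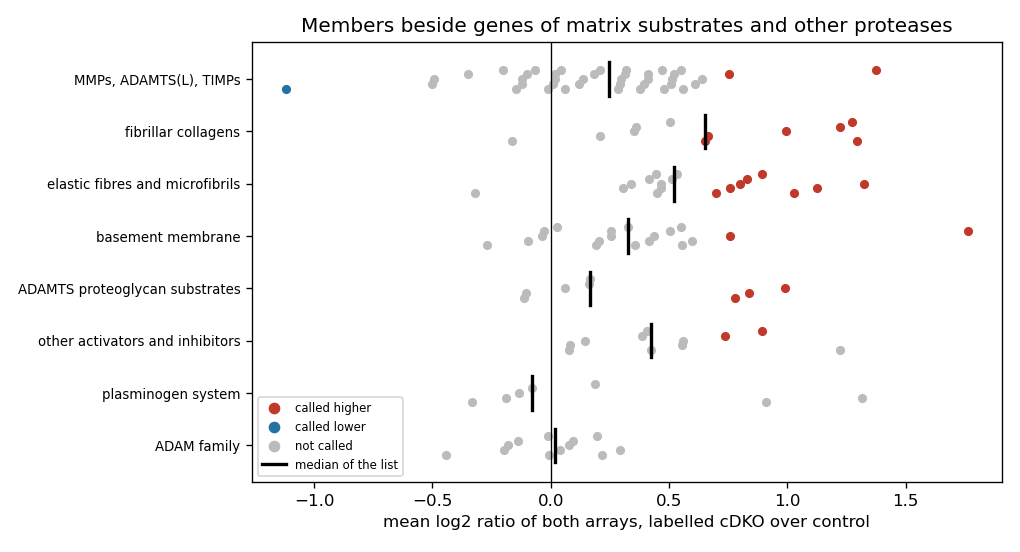
Mean log2 ratio of both arrays, labelled cDKO over control, for each tested gene of the members and of 7 lists of substrates and other proteases, in red where called higher, blue where called lower and grey where not called, with a black bar at the median. The members' median of 0.25 lies below that of the fibrillar collagens (0.65) and of the elastic fibre genes (0.52) and above that of the ADAM genes (0.016).

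The setting of the processing bore on the calls. Adamtsl2 kept its call in 8 of 10 other settings, Mmp9 in 8 of 10 and Adamts2 in 6 of 10. Among the 10, Aquantile after loess leaves log2 ratios untouched and repeats the main fit, so its kept calls were fixed in advance. The settings that changed the variance model or the filter left these ratios as they were by construction. The deposited value table gave 0 calls by limma among members and 0 among all genes, with 12 members and 2436 genes at an unadjusted p under 0.05.

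**Figure D4:**
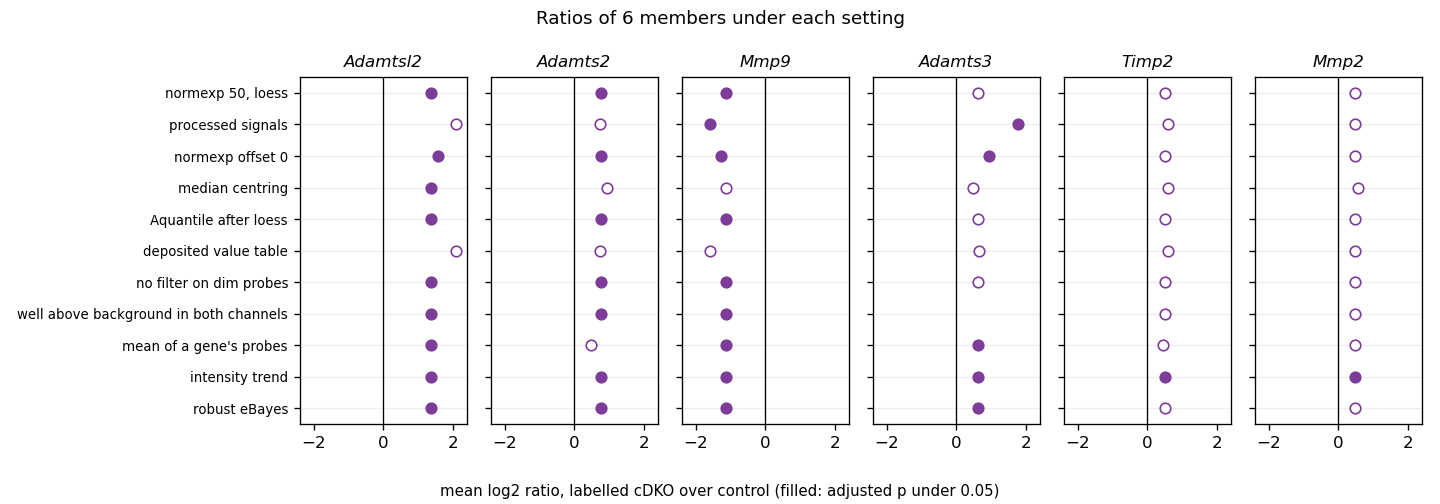
Mean log2 ratio, labelled cDKO over control, of 6 members (panels) in each of 11 settings (rows), filled where the adjusted p is under 0.05; Adamts3 has no value where both channels had to be bright. Adamtsl2 ranges from 1.37 to 2.08, Adamts2 from 0.48 to 0.95, Mmp9 from -1.59 to -1.12 and Adamts3 from 0.49 to 1.76.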

How the data were processed

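The scanner files were written by Agilent Feature Extraction 10.7.3.1, per the file headers; as deposited they hold mean spot and median background intensity, a processed signal intensity that the program background-subtracted and dye-normalized, a log10 ratio of red over green, and 0 or 1 flags. A further value table deposited by the authors holds a score whose scale is not stated. For spots with both signals above 50 it equalled the signed fold of labelled cDKO over control processed signals within 0.001 log2. This held in 100% of 28085 and 27092 spots, so for such spots it is not centred further. Over all gene spots, dim ones included, its correlation with the processed log ratios was 0.8095 and 0.8339. For Adamts3, dim in control RNA, it gave 0.66, against 1.76 with the processed signals. Probe positions are mm9.

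Here, normexp with an offset of 50 was applied to the mean intensities, which were then loess-normalized within arrays (limma 3.58.1, R 4.3.3), with controls and outlier spots at weight 0. Spots of a probe were averaged, 29274 probes passed the brightness filter, and the mean log2 ratio was tested against 0 (lmFit, eBayes, two-sided, Benjamini-Hochberg over these probes, threshold 0.05, 1 residual and 13.9 prior degrees of freedom). With so few residual degrees of freedom, the pooled variance sets most of each p-value. A gene other than a member was taken by its brightest tested probe. Symbols came from RefSeq (GRCm38.p6) by accession for 26412 probes and from the file for 13017. Figures used matplotlib 3.10.9. The fit was tested on simulated data.

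Members, role groups and lists were chosen with earlier results of these data known. Named members are those called, those at an absolute log2 ratio of at least 1 with 1 sign, Mmp2, Mmp14 and the TIMPs, and the brightest of each role; Adamts3, Adamts7 and all further members were named after their values were seen. Of each related list, genes with the largest ratios and 1 sign on both arrays were named, and others after their values were seen.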

Additional observations from a re-analysis of the deposited data

Results flagged for a closer look

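With 1 array of each sex, 9 of the 40 tested members had ratios of labelled cDKO over control that pointed opposite ways on the 2 arrays. Among all 23419 tested genes, 9427 did so, a larger share than among the members. The difference was not tested for any of them, and sex, dye and replicate cannot be told apart. On the log2 scale, female minus male, it was largest for Mmp3 at 0.93 and Mmp17 at -0.78, followed by Mmp27 at 0.53, Adamts8 at -0.48 and Adamts18 at 0.40. It was -0.26 for Mmp1a, 0.21 for Mmp10, 0.16 for Timp3 and 0.13 for Adamtsl3. None of the 9 was called, and Mmp1a, Mmp10 and Mmp27 were not well above background in the female control RNA.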

How the results depend on the processing

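Adamtsl2, Adamts2 and Mmp9 kept their direction with the processed signals, an offset of 0, median centring and the deposited value table, and on each array alone. So did Adamts2 with the mean of its probes. The filters, the intensity trend, robust eBayes and Aquantile leave these ratios as they are by construction. In the main setting limma called 512 genes higher and 530 lower, and 2 and 1 members. With the processed signals these were 135 and 210 genes, with 1 member higher (Adamts3, whose control spots were dim). There, 2 members were at least 2-fold higher on both arrays, Adamtsl2 and Adamts3, the latter against dim control spots. Mmp9 alone was at least 2-fold lower on both, and the median was 0.30. For this 2-fold rule, counts over all genes are given in the main setting only. Under median centring limma called 163 genes higher and 157 lower, with 1 member higher and 0 lower, and the median of the members was 0.33. There, 8 members and 1379 of all genes had an unadjusted p under 0.05. This centring moved the median of all genes to 0.066. The deposited value table gave 0 and 0 genes and 0 and 0 members by limma, 1 member at least 2-fold lower and a median of 0.29. Of 23419 tested genes and 40 tested members, an intensity trend called 943 and 6 higher, and robust eBayes 623 and 4. Both member counts include Adamts3, whose control spots were dim. The higher share of all calls was 49.1% in the main setting, 39.1% with the processed signals and 58.4% with the trend. The median of the members was 0.14 without a filter, 0.29 when both channels had to be bright and 0.19 with the mean of a gene's probes. Leaving out an array gave medians of 0.20 to 0.25, 0 to 1 members at least 2-fold lower and 1 at least 2-fold higher. The causes were not tested. No paired analysis was possible beyond the main test because each array's ratio of labelled cDKO over control is already the paired difference. Dim spots limit 11 members that were not tested and the bound for Adamts3.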
